A study of Mus musculus with 16 samples.

Results

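The step from the macrophage-dendritic cell progenitor (MDP) to the common dendritic cell progenitor (CDP) was described in bone marrow of mice that carried no tumor. The 8 arrays labelled CDP_Normal_2 to CDP_Normal_5 and MDP_Normal_2 to MDP_Normal_5 were taken from the 16 arrays of the series, 4 for each progenitor. All mice were female C57/Bl6, and each sample pooled the sorted cells of 2 animals. The tumor-free mice were age-matched to mice that carried orthotopic PyMT-B6 mammary tumors of 1.5 cm, whose 4 MDP and 4 CDP arrays enter below only where the same step is set beside the tumor-free one. MDPs and CDPs were sorted by flow cytometry from marrow depleted of lineage-positive cells. The gates that separated them are not given in the sources used here. The labels name no genetic change in any group.

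Each of the 4 slides held 1 MDP and 1 CDP array of tumor-free mice, so every change below is the mean of 4 differences taken within a slide. Slides are numbered 1 to 4 and paired MDP_Normal_3 with CDP_Normal_5, MDP_Normal_2 with CDP_Normal_4, MDP_Normal_5 with CDP_Normal_2, and MDP_Normal_4 with CDP_Normal_3. A level is the log2 of the scanner's processed Cy5 signal minus the 75th percentile of that array, so a level of 0 is that percentile itself. A change is the CDP level minus the MDP level. A probe was called when its adjusted p was under 0.05 (limma with slide as a block, Benjamini-Hochberg) and its fold above 1.5. Where a slide is said to be left out, only its MDP and CDP arrays of tumor-free mice were dropped. The lowest signals that the scanner marked as well above background lay between -5.48 and -5.11, so levels near -7 are background. A probe could pass the filter through its brighter group alone, and a change then includes background readings of the other group. Where 0 of 4 arrays of the dimmer group were above background, the fold is given as a bound.

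MDPs sit below the granulocyte-monocyte stage and can still give rise to monocytes, macrophages and dendritic cells. CDPs have lost most monocyte potential and give rise to pre-dendritic cells, which mature into cDC1, the subset that cross-presents antigen to CD8 T cells, and cDC2, and to plasmacytoid dendritic cells (pDC), which secrete type I interferon. The receptor tyrosine kinases Kit, Flt3 and Csf1r read the growth factors of these cells and are the usual proteins by which both progenitors are told apart.

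The transcripts of these receptors were therefore read as a check of the labels and not as a finding. Kit stood at 1.66, 1.82, 1.56 and 1.64 on the MDP arrays of slides 1 to 4 and at -0.66, -1.33, -0.83 and -0.87 on the CDP arrays. The groups did not overlap, and Kit was 6.03-fold lower in CDPs (change -2.59 ± 0.18 SE, adjusted p = 1.62e-05). Csf1r averaged 3.93 ± 0.26 (SD, n = 4) in MDPs and 4.44 ± 0.19 in CDPs, a change of 0.51 that passed the p threshold but not the fold. Flt3 changed by 0.41 (95% interval -0.33 to 1.16, adjusted p = 0.471). Cd34, a sialomucin of early progenitors, was 2.73-fold lower in CDPs, and Ly6a, which encodes Sca-1, rose by 0.66 (adjusted p = 0.0296), a call lost without slide 1, 2 or 3, without the slide block and by the methods' t-test. Both groups thus carried Flt3 and Csf1r signal above the 75th percentile, and CDPs carried less Kit and Cd34.

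The arrays of slide 1 stood apart from the other slides. Correlations between arrays of one group ran from 0.907 to 0.976 for MDPs and from 0.904 to 0.978 for CDPs, and the lowest value in each involved slide 1. The MDP and CDP arrays of one slide correlated at 0.949 to 0.959. Without slide 1 limma called 2206 probes, and without slide 2, 3 or 4 it called 2026, 2181 and 2156, against 2941 with all. Markers of other cell types were read beside these values, as the summed linear signal of each list in units of the array's 75th percentile. Erythroid genes summed to 13.7 to 20.6 in MDPs and 14.2 to 25.6 in CDPs, megakaryocyte genes to 2.63 to 5.07 and 3.41 to 5.42, and early lymphoid and B-lineage genes to 13.1 to 32.2 and 13.9 to 27.1. These ranges overlapped. T, NK and innate lymphoid genes summed to 16.8 to 19.0 in MDPs and 5.69 to 8.76 in CDPs, and mast cell and basophil genes to 8.71 to 10.2 and 2.64 to 4.74. Nkg7 alone went from a mean level of 3.74 to 0.62, while 12 of the 17 T, NK and innate lymphoid genes tested had a positive change. Of the genes on the array, 19 of 20 erythroid, 10 of 14 megakaryocyte, 13 of 20 early lymphoid and B-lineage, 17 of 22 T, NK and innate lymphoid and 7 of 14 mast cell and basophil genes were above background often enough to be tested, Cd3d, Cd3e, Lck, Klrd1 and Mcpt8 among them. Cd3g, Tcf7, Gzma, Cd79a, Ms4a1, Cpa3, Ms4a2 and Ppbp were not. The part of other cell types in the changes below was not tested, and in sorted pools fewer cells of a type and less RNA per cell cannot be told apart.

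Of 26712 probes tested, 2941 were called (11%), 1449 of them higher and 1492 lower in CDPs. With normexp background correction the split was less even, with 38.1% of calls higher against 49.3% here, and that setting moved the median change of all probes from 0.02 to -0.10. Taking each of 16485 genes by its brightest probe, 949 genes were higher (5.76%) and 1022 lower (6.2%), and these shares are the background for every list below. Some lists share members, so their counts are not separate results. Klf2, Klf4, Runx2, Tlr9, Tlr11, Ifi205, Cd209a, Cd209d, Ccr2 and Cxcr2 are among the genes counted in several lists. The median change over all genes was 0.02. The same sign was seen on 4 of 4 slides for 1429 of the higher and 1467 of the lower probes. Fitted changes beyond 2 log2 units, those against background readings included, were found in 150 higher and 123 lower genes. Of 533 called genes with further tested probes, all probes were called the same way in 302 and a probe was called the opposite way in 0.

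**Figure D1:**
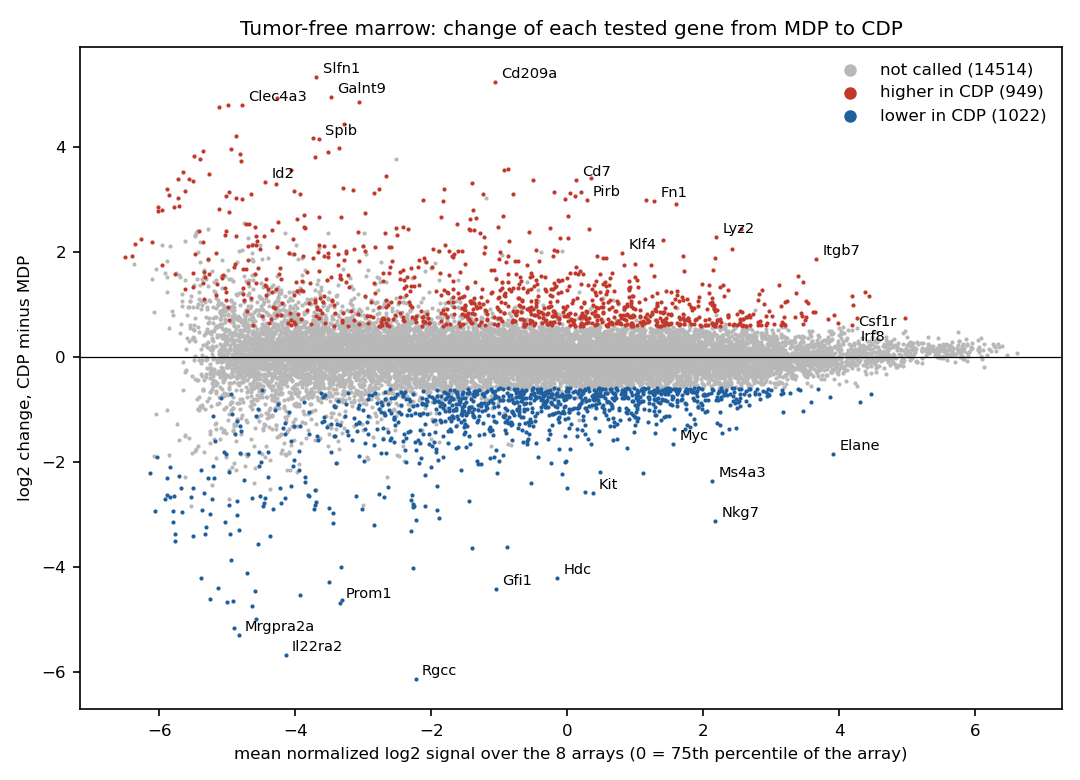
Each point is 1 of 16485 genes, by its mean level over the 8 tumor-free arrays (horizontal axis, normalized log2 signal) and its change from MDP to CDP (vertical axis, log2). Red points are the 949 genes called higher in CDPs and blue points the 1022 called lower. Among the outlying points, Cd209a is above background on all 8 arrays and Slfn1 on 0 of 4 MDP arrays, and Nkg7, Elane and Itgb7 are called at mean levels above 2.

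The genes gained in CDPs included transcription factors of the dendritic cell lineage. Of 22 such factors tested, 11 rose and 0 fell (1 fell and 15 rose at an unadjusted p under 0.05 in limma), with a median change of 0.82 against 0.02 for all genes. Per-slide medians of the list ran from 0.71 to 1.03. Spib, an ETS factor of pDC and B cells, had the largest fitted change of the list. It stood at -4.91, -5.63, -4.86 and -7.51 on the MDP arrays and at -0.78, -1.64, -1.5 and -2.39 on the CDP arrays (probe at chr7:51781392-51781451, mm9). It was above background on 2 of 4 MDP arrays, and the fitted change was 4.15 ± 0.41 SE (adjusted p = 0.000128). Id2, an inhibitor of E proteins that favors conventional dendritic cells over pDC, was above background on 0 of 4 MDP arrays (-7.14, -6.77, -5.25 and -5.28) and on 4 of 4 CDP arrays (-1.43, -3.27, -2.65 and -3.73). Id2 was at least 5.38-fold higher in CDPs (adjusted p = 0.00396), a call lost under 3 alternative settings, among them normexp background correction.

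Irf4, which cDC2 depend on, rose from -5.49 ± 1.02 (SD, n = 4) to -2.39 ± 0.59, a change of 3.10 ± 0.36 SE (adjusted p = 0.000326), with 2 of 4 MDP arrays above background. Klf4, a zinc finger factor of monocytes and of part of the cDC2, stood at 0.34, -0.63, -0.33 and -0.12 in MDPs and 2.30, 1.78, 1.61 and 1.51 in CDPs, a rise of 1.98 ± 0.14 SE (adjusted p = 1.92e-05). Every CDP array read above every MDP array. Runx2 (1.82), Bcl6 (1.6), Zbtb46 (1.49), a factor restricted to conventional dendritic cells among leukocytes, Bcl11a (1.11), Cbfa2t3 (1.03), Notch2 (0.99) and Nfil3 (0.65) also rose. A dimmer probe of Zbtb46 rose by 4.32 and a dimmer probe of Runx2 by 0.80, which was not called. The call of Zbtb46 was lost under 4 alternative settings, among them the fit without the slide block.

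Several defining factors of the lineage did not pass the test. Irf8, the factor that cDC1 depend on, read 3.76, 4.15, 4.10 and 4.42 in MDPs and 3.73, 4.38, 4.55 and 4.65 in CDPs. The change of 0.22 (95% interval 0.02 to 0.43, adjusted p = 0.138) was not called, and slide 1 was low in both groups. Batf3, a cDC1 factor, changed by 0.45 (adjusted p = 0.0867), Tcf4, the pDC E protein, by 0.27 (adjusted p = 0.335) and Spi1, which encodes PU.1, by 0.30. None of the 4 was called.

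**Figure D2:**
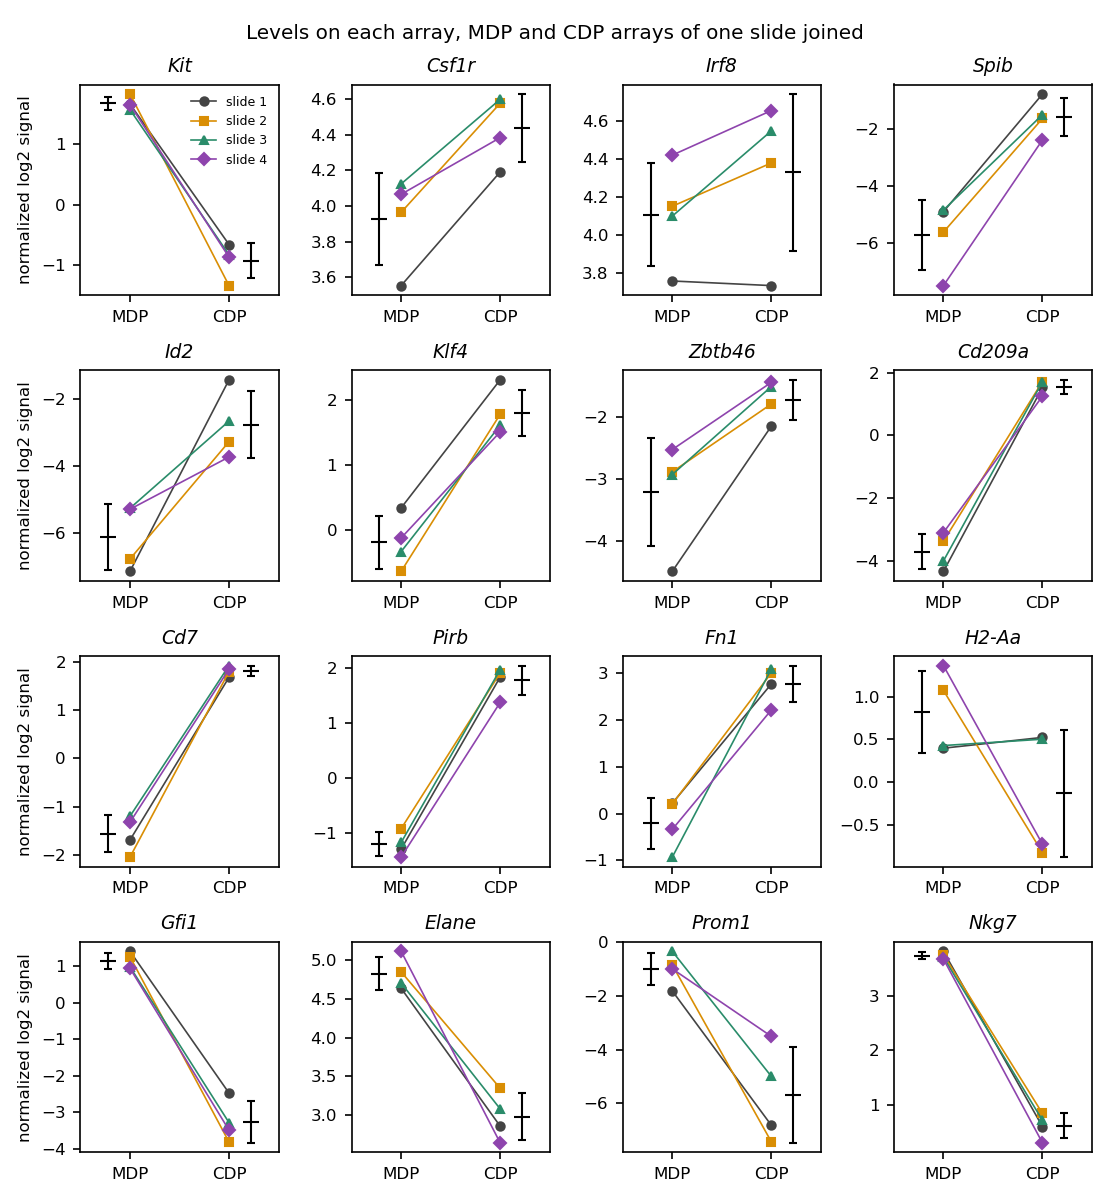
Levels (normalized log2 signal, vertical axes) of 16 genes on the 8 arrays, with the MDP and CDP array of one slide joined by a line; black bars beside the points are the group mean ± SD (n = 4). The lines of Cd209a, Cd7, Pirb, Gfi1 and Nkg7 run nearly parallel, those of H2-Aa split by slide, and Irf8 lies near 4 in both groups.

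Other Krüppel-like factors moved as well, a family that was picked by name after its values were seen. Of 13 tested, 6 rose, among them Klf2 (3.91), a factor of quiescence and trafficking, Klf3 (1.58) and Klf6 (1.47), and 2 fell, Klf1 (-2.77), the erythroid factor, and Klf9 (-0.91). Neither fall was called without slide 3 or without slide 4. The call of Klf1 was lost under 6 other alternative settings. Klf2 was above background on 3 of 4 MDP arrays, and its signal on slide 3 was -7.41.

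Markers of mature subsets were gained in part. Among general dendritic cell genes 6 of 14 tested rose and 0 fell (9 rose and 0 fell at an unadjusted p under 0.05 in limma), with a median change of 0.64. Cd86, a costimulatory ligand for T cells, was at -7.37, -7.30, -7.40 and -4.92 in MDPs and at -2.02, -3.33, -3.01 and -3.13 in CDPs. It was above background on 1 of 4 MDP arrays. The rise of 3.88 ± 0.58 SE (adjusted p = 0.00131) was not called under 2 alternative settings, among them normexp background correction. Itgax, which encodes CD11c, rose by 2.97 (adjusted p = 0.0195), a call lost under 7 alternative settings. Plbd1 rose by 3.13, Itgb7, the beta chain of a gut-homing integrin, by 1.87 and Kmo by 1.58. Itgb7 was bright in both groups, at 2.43 to 2.91 in MDPs and 4.33 to 4.71 in CDPs.

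Of 12 cDC2 markers tested, 3 rose and 2 fell, with a median of 0.26. The falls were not stable, with 0 of 12 without slide 2 and 1 without slide 1 or slide 4 and under normexp or quantile normalization. Cd209a, a C-type lectin of the DC-SIGN family carried by cDC2 and monocyte-derived cells, had the largest rise among probes above background on all 8 arrays. It read -4.32, -3.36, -3.99 and -3.09 in MDPs and 1.53, 1.72, 1.71 and 1.25 in CDPs (probe at chr8:3743481-3743540, mm9), a 37.8-fold rise (5.24 ± 0.47 SE, adjusted p = 7.51e-05). A second probe of Cd209a rose by 6.51. Cd7, an immunoglobulin family protein of lymphoid cells and some dendritic precursors, rose 10.3-fold from -1.56 ± 0.38 (SD, n = 4) to 1.81 ± 0.10. Of 11 cDC1 markers tested, 4 rose and 0 fell (4 rose and 0 fell at an unadjusted p under 0.05 in limma), namely Tlr11 (3.14), Naaa (1.98), Ifi205 (1.46) and Btla (1.03), and the median was 0.32. Tlr11 read -0.25 on the CDP array of slide 2 and -4.98 to -3.64 on the others, and its call was lost under 18 alternative settings. Without the slide block, 2 of the 11 rose. Clec9a, a receptor for dead cells on cDC1 and their precursors, read -1.42 to -0.60 in MDPs and 0.47 to 1.26 in CDPs. Its change of 2.02 was not called at an SE of 0.92 (adjusted p = 0.173), a fit in which the spread comes from all 16 arrays. It was higher on 4 of 4 slides without overlap of the groups, and it was called under 6 alternative settings, among them the fit of the 8 tumor-free arrays alone. Xcr1, Tlr3, Cd8a and Cadm1 were not above background often enough to be tested.

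Of 18 pDC markers tested, 9 rose and 0 fell (11 rose and 0 fell at an unadjusted p under 0.05 in limma), with a median of 0.78. Upb1 (3.0), Irf7 (2.80), Runx2 (1.82), Cd209d (1.21), Pacsin1 (1.11) and Pld4 (0.99) were among them. The count was 5 without slide 1 and 7 without any other slide. Runx2, Cd209d, Tlr9 and Bst2 of this list are also counted in other lists given here. Siglech, an inhibitory lectin of pDC, was bright in both groups at 3.93 ± 0.75 and 4.10 ± 0.68 (SD, n = 4). Its brightest probe changed by 0.17 (adjusted p = 0.590), while 2 dimmer probes of the gene rose by 2.61 and 4.82.

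**Figure D3:**
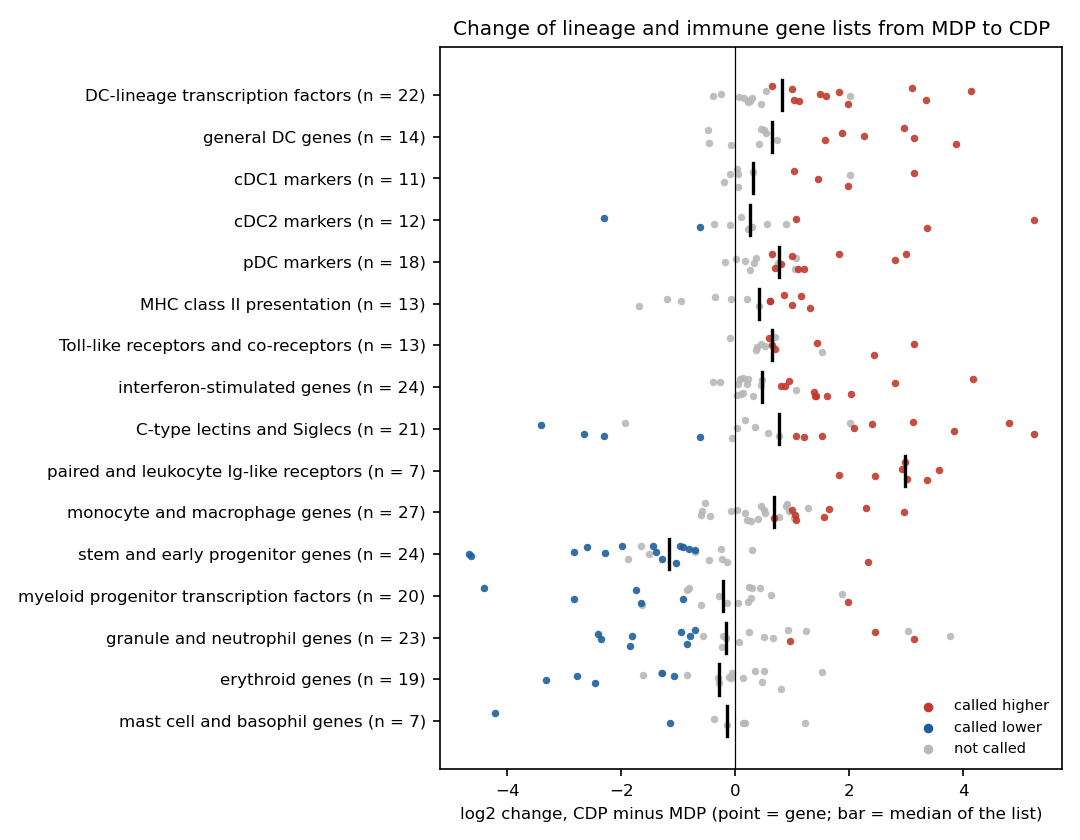
Change from MDP to CDP (horizontal axis, log2) of each tested member of 16 gene lists, colored by call, with a bar at the median of each list. Medians lie to the right for the dendritic, innate sensing and monocyte lists, at 2.99 for the paired and leukocyte Ig-like receptors, and at -1.16 for stem and early progenitor genes.

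Surface lectins changed in both directions. Of 21 C-type lectins and Siglecs tested, 9 rose and 4 fell, with a median of 0.78. The genes that rose lie in the DC-SIGN cluster (Cd209a, Cd209e, Cd209c and Cd209d) and the Dectin-2 cluster (Clec4a3, Clec4a1 and Clec4b1), with Cd33 and Clec10a. Clec4a3 was above background on 0 of 4 MDP arrays and was at least 7.12-fold higher in CDPs (adjusted p = 4.90e-05). The genes that fell were Clec4e, the mycobacterial glycolipid receptor Mincle, its partner Clec4d (-2.66), Clec12a, above background on 0 of 4 CDP arrays and at least 1.47-fold lower, and Mgl2 (-0.62). Clec4e lies near Clec4a3 on chromosome 6, so the Dectin-2 cluster changed in both directions. Clec4e read -2.44, -2.43, -3.0 and -2.80 in MDPs and was above background on 0 of 4 CDP arrays, at least 6.11-fold lower (adjusted p = 0.000344). The call of Clec12a was lost under 14 of the alternative settings tried.

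The paired and leukocyte immunoglobulin-like receptors, MHC class I binding receptors of myeloid cells that occur in activating and inhibitory forms, all moved one way. This family too was picked by name after its values were seen. All 7 members tested rose, by 1.83 to 3.58 with a median of 2.99: Pira11 (3.58), Pira6 (3.38), Pira2 (3.02), Pirb (2.99), Lilra6 (2.92), Lilr4b (2.45) and Lilrb4a (1.83). Pirb read -1.30, -0.92, -1.18 and -1.44 in MDPs and 1.84, 1.92, 1.98 and 1.38 in CDPs, a 7.94-fold rise (adjusted p = 1.92e-05). The Pira genes and Pirb are closely similar copies, and a probe of one may also read others, so their values are not separate measurements. The count was 7 without each slide in turn.

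Promoters of this family were read from RefSeq (GRCm38.p6), which held the 250 bases before a start site for 4 of the 7. They are shown because the members moved together. The letters GAGGAAGT, a site of the PU.1 type searched on both strands, stood in 3 of these 4 and are in capitals. The KLF letters CCACACCC also stood in 3 of the 4. The Pira2 and Pirb promoters shown are closely similar in sequence, so their matches are not separate observations.
Pira2, chr7:3845052-3845301, minus strand: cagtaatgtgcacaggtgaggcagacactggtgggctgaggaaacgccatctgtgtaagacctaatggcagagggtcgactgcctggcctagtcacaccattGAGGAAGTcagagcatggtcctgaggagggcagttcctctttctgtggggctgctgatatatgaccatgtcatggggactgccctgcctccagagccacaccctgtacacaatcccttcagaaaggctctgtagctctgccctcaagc
Pirb, chr7:3720383-3720632, minus strand: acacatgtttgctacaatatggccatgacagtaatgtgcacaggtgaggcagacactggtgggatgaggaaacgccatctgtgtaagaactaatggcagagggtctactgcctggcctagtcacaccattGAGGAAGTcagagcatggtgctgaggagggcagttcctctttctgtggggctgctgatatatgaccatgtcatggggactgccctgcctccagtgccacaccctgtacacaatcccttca
The same letters were in 3.01% of 12646 tested genes with a promoter, in 5.49% of 729 higher genes and in 2.45% of 817 lower genes. In all 32851 promoters of the table the share was 2.44%.

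Part of the innate sensing genes rose. Of 13 Toll-like receptors and co-receptors tested, 6 rose and 0 fell (9 rose and 0 fell at an unadjusted p under 0.05 in limma), with a median of 0.65. Tlr13, the sensor of bacterial ribosomal RNA, rose from -2.66 ± 0.57 (SD, n = 4) to -0.22 ± 0.41, a change of 2.44 (adjusted p = 0.000487). Tlr12 (1.44), Tlr9 (0.70), Myd88 (0.65) and Tlr2 (0.60) rose by less. The count fell to 3 under normexp and to 2, 1, 5 and 4 without slides 1, 2, 3 and 4. Among interferon-stimulated genes 10 of 24 tested rose and 0 fell (12 rose and 0 fell at an unadjusted p under 0.05 in limma), with a median of 0.47, and the count was 5 to 8 when 1 slide was left out. Irf7, the factor that amplifies type I interferon, read -2.96, -2.72, -3.05 and -2.40 in MDPs and -0.01, 0.22, 0.25 and -0.37 in CDPs, a rise of 2.80 ± 0.63 SE (adjusted p = 0.0116). Ifit3, which restricts viral RNA, read -7.37, -5.15, -3.22 and -7.56 in MDPs and -1.67, -0.91, 0.21 and -4.23 in CDPs. Its groups overlapped although it rose on each slide, by 4.18 ± 0.47 SE (adjusted p = 0.000263). Mx1 (2.02), Usp18 (1.61) and Oas3 (1.40) also rose. Isg15 (0.22), Ifit2 (0.03) and Ifih1 (0.05) were not called.

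The core of the interferon-stimulated response element, GAAANNGAA on either strand, was found in 8 of 16 interferon-stimulated genes with a promoter (50%), against 7.73% of all tested genes, 12.1% of higher and 7.59% of lower genes. Of these 8, Ifit3, Oas3, Stat2 and Bst2 rose and Rsad2, Isg15, Oas1a and Ifih1 were not called. Promoters of the 2 with the largest rises are shown, with the matches in capitals.
Ifit3, chr19:34583279-34583528, plus strand: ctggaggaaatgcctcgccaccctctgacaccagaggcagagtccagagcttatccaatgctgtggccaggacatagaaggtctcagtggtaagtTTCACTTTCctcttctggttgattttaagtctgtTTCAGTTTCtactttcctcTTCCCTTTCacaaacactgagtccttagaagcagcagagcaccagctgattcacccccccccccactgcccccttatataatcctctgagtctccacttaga
Oas3, chr5:120777660-120777909, minus strand: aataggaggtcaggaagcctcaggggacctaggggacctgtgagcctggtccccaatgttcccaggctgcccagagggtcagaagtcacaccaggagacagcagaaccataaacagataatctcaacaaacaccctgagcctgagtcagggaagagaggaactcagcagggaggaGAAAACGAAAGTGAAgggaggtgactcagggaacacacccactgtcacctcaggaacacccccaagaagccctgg
Ifit3 held 3 matches and Oas3 held 2 that overlap.

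Genes of MHC class II presentation were split between accessory proteins and the class II molecules. Of 13 tested, 6 rose and 0 fell (7 rose and 2 fell at an unadjusted p under 0.05 in limma). The 6 that rose encode lysosomal enzymes and peptide loading factors: Lgmn (1.31), Ifi30 (1.16), H2-DMb2 (0.99), Ctss (0.86), H2-DMb1 (0.62) and H2-DMa (0.61). The class II chains themselves were not called, at -0.95 for H2-Aa, -1.20 for H2-Ab1 and -1.69 for H2-Eb1 (adjusted p = 0.0651). H2-Eb1 read -0.60, 0.15, -0.84 and 0.17 in MDPs and -1.75, -2.62, -0.99 and -2.53 in CDPs. It was lower on 4 of 4 slides without overlap of the groups and was called under 5 alternative settings. The call of H2-DMb2 was lost under 5 alternative settings. H2-Aa read 0.40, 1.07, 0.43 and 1.37 in MDPs and 0.52, -0.83, 0.50 and -0.73 in CDPs. It was thus lower in CDPs on slides 2 and 4 and near level on slides 1 and 3 (95% interval -2.58 to 0.68). Ciita, the class II transactivator, changed by 0.20.

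Monocyte and macrophage genes rose where they were called. Of 27 tested, 8 rose and 0 fell (15 rose and 1 fell at an unadjusted p under 0.05 in limma), with a median of 0.68. Fn1, fibronectin, read 0.22, 0.21, -0.93 and -0.34 in MDPs and 2.76, 3.0, 3.08 and 2.21 in CDPs, a 7.84-fold rise (adjusted p = 8.41e-05). Lyz2, lysozyme, rose from 1.04 ± 0.17 (SD, n = 4) to 3.33 ± 0.60 (2.29 ± 0.26 SE, adjusted p = 0.000269). Tgfbi (1.64), Irf5 (1.55), Mpeg1 (1.06), Lyz1 (1.05), Ccr2 (1.0), the receptor by which monocytes leave marrow, and Cd68 (0.68) rose. Apoe changed by -0.58 and was not called.

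The genes lost in CDPs included those of stem and early progenitor cells. Of 24 tested, 14 fell and 1 rose, with a median of -1.16 against 0.02 for all genes, and per-slide medians ran from -1.37 to -0.64. By the methods' t-test after Benjamini-Hochberg 6 fell and 0 rose. Prom1, the membrane protein CD133, read -1.82, -0.86, -0.35 and -1.0 in MDPs and -6.81, -7.42, -5.00 and -3.51 in CDPs, where 2 of 4 arrays were above background (adjusted p = 0.00153). Angpt1, a ligand of the Tek receptor, fell too, and 2 of 4 CDP arrays were above background. Hlf was above background on 0 of 4 CDP arrays and was at least 3.89-fold lower. Gata2 (-2.82), a factor of stem, mast and early erythroid cells, Muc13 (-1.98), Cd34 (-1.45), Cdk6 (-1.39), Tal1 (-1.28), Hoxa7 (-1.04), Meis1 (-0.96), Myb (-0.92) and Sox4 (-0.70) fell. Cd34 was also read above with the label checks. The call of Gata2, which read -7.32 on the CDP array of slide 3, was lost under 6 alternative settings. Spink2 was the member that rose (2.33), and that call was lost under 9 alternative settings.

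Gfi1 and Cebpe, factors of the granulocyte branch, fell while Cebpa and Spi1, factors shared by granulocytes and monocytes, were not called. Of 20 myeloid progenitor transcription factors tested, 5 fell and 1 rose, against 2 and 1 by the methods' t-test after Benjamini-Hochberg. The median was -0.21, and the member that rose was Klf4, counted above among the dendritic cell factors. Gfi1, a repressor that granulocytes require and that opposes the macrophage program, read 1.41, 1.26, 0.99 and 0.95 in MDPs and -2.47, -3.81, -3.28 and -3.49 in CDPs (probe at chr5:108145719-108145778, mm9). It fell 21.3-fold (-4.42 ± 0.33 SE, adjusted p = 2.21e-05). Cebpe, of late granulopoiesis, fell by 1.73 (adjusted p = 0.00702), Myc by 1.65 (adjusted p = 0.000774), and Cebpa changed by -0.28 (95% interval -0.54 to -0.02, adjusted p = 0.142).

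Granule genes were split. Of 23 tested, 8 fell and 3 rose, with a median of -0.15. Those that fell included the primary granule proteins made first in granulopoiesis. Elane, neutrophil elastase, read 4.64, 4.85, 4.71 and 5.12 in MDPs and 2.86, 3.35, 3.08 and 2.64 in CDPs, a 3.60-fold fall (adjusted p = 0.000159). Prss57 (-2.40), Ms4a3 (-2.36), a gene of granulocyte-monocyte progenitors, Serpinb1a (-0.96), Prtn3 (-0.85), Cst7 (-0.80) and Mpo (-0.71) fell with it, as did Cxcr2 (-1.80), the neutrophil chemokine receptor. Elane and Mpo still stood at 2.98 ± 0.30 and 4.10 ± 0.16 (SD, n = 4) in CDPs. Those that rose were Chil3 (3.14), Retnlg (2.45) and Mmp8 (0.96), genes of later granulocytes, of which Chil3 is also made by monocytes. Without slide 3, 1 of the 23 rose. Ear2 (3.77) and S100a9 (3.03) were not called at SEs of 1.24 and 1.13. The late granule genes Ltf (0.51), Camp (0.66), Ngp (0.25) and Lcn2 (-0.24) were not called. The summed signal of the list was 152 to 211 in MDPs and 94.3 to 143 in CDPs.

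Promoters of this list are shown for genes on both sides. GAGGAAGT was found in 5 of 20 granule genes with a promoter (25%), of which Elane, Prtn3 and Mpo fell, Mmp8 rose and S100a8 was not called. The C/EBP letters TTGCNNAA were in 8 of 20 (40%) against 9.5% of all tested genes. Of those 8, Retnlg and Mmp8 rose and Ear2, S100a9, Fcnb, Ltf, Ngp and Lcn2 were not called. In capitals are GAGGAAGT in Elane and Prtn3 and TTGCNNAA in Retnlg.
Elane, chr10:79886062-79886311, plus strand: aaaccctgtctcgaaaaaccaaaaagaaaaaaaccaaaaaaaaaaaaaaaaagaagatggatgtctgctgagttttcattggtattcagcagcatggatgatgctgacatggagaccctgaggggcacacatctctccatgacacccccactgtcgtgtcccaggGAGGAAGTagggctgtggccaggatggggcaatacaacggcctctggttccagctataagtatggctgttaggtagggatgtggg
Prtn3, chr10:79879417-79879666, plus strand: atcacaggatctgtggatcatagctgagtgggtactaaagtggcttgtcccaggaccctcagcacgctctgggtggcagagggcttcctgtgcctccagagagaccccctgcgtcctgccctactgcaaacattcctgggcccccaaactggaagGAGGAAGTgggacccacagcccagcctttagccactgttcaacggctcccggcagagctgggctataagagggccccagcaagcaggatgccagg
Retnlg, chr16:48872358-48872607, plus strand: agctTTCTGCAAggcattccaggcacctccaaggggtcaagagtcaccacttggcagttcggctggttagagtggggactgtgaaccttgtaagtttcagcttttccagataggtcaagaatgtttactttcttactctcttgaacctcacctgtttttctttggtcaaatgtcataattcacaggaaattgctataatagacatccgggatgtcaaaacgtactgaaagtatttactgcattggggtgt
Of the other letters searched on both strands, those of the ETS-IRF composite element (GGAANNGAA, which can overlap GAAANNGAA) were in 8.37% of higher, 6.85% of lower and 7.46% of all tested genes. The E-box CACGTG was in 8.64%, 10.9% and 8.87%. The E2F letters GGCGGGAA were in 3.29%, 3.3% and 3.51%. The GATA letters AGATAAG were in 3.16%, 3.43% and 2.5%. The KLF letters CCACACCC were in 6.31%, 4.41% and 4.16%, and TTGCNNAA was in 10.2%, 9.3% and 9.5%. A match of letters is no measured binding site.

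Genes of the erythroid and mast cell branches were also lower where they changed. Of 19 erythroid genes tested, 5 fell and 0 rose (7 fell and 2 rose at an unadjusted p under 0.05 in limma): Car1 (-3.31), Klf1 (-2.77), Car2 (-2.45), Rhd (-1.28) and Sphk1 (-1.08). Without slide 4, 3 fell, and by the methods' t-test after Benjamini-Hochberg 1 fell. Gata1 (-0.84) and the globins Hba-a1 (0.81) and Hbb-b1 (1.52) were not called. Of 7 mast cell and basophil genes tested, 2 fell, Hdc (-4.22) and Mcpt8 (-1.14), and 0 rose (2 fell and 0 rose at an unadjusted p under 0.05 in limma). Hdc, the enzyme that makes histamine, read 1.55, 2.09, 2.04 and 2.15 in MDPs and -2.74, -1.29, -2.06 and -2.94 in CDPs, an 18.6-fold fall (adjusted p = 1.62e-05). Of 10 megakaryocyte genes tested, 0 were called (1 rose and 0 fell at an unadjusted p under 0.05 in limma).

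Among 17 T, NK and innate lymphoid genes tested, 3 rose and 1 fell. The gene that fell, Nkg7, a protein of cytotoxic granules, was bright in MDPs. It read 3.82, 3.75, 3.71 and 3.67 in MDPs and 0.60, 0.84, 0.72 and 0.30 in CDPs, an 8.70-fold fall (-3.12 ± 0.13 SE, adjusted p = 1.41e-06), and a second probe fell by 3.83. Klrd1, the NK receptor CD94, rose from signal above background on 1 of 4 MDP arrays to 4 of 4 CDP arrays. Thy1 rose by 1.75 and Cd2 by 0.59, and 1 gene rose without slide 2. The T cell genes Cd3d (0.10), Cd3e (-0.18) and Lck (0.01) were not called.

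Most genes of the machinery that builds ribosomes fell. Of 20 ribosome biogenesis genes tested, 16 fell and 0 rose (19 fell and 0 rose at an unadjusted p under 0.05 in limma), with a median of -0.85 and per-slide medians from -0.98 to -0.78. Polr1b, the second largest subunit of RNA polymerase I, read -0.11, -0.13, -0.58 and -0.60 in MDPs and -1.97, -1.40, -2.04 and -1.94 in CDPs, a 2.79-fold fall (adjusted p = 0.000233). Wdr43 (-1.39), Gnl3 (-1.29), Polr1a (-1.22), Wdr12 (-1.19), Mybbp1a (-1.11), Nop58 (-0.97), Dkc1 (-0.96) and Ncl (-0.79), which encodes nucleolin, fell. Npm1 (-0.09), Fbl (-0.26), Pes1 (-0.49) and Rrp12 (-0.75) were not called. Without each slide in turn 13 to 15 of the 20 fell, and 11 fell without the slide block.

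Related families were picked by name after their values were seen. RNA polymerase I and III subunits fell in 6 of 13 and rose in 0 (7 fell and 0 rose at an unadjusted p under 0.05 in limma), led by Polr3d (-1.85). Polr1a and Polr1b among them are also counted in the ribosome biogenesis list. Aminoacyl-tRNA synthetases, which charge transfer RNAs, fell in 11 of 36 and rose in 0 (22 fell and 0 rose at an unadjusted p under 0.05 in limma), with a median of -0.46. The count was 6 without slide 1 and 7 without the slide block. Mitochondrial ribosomal proteins fell in 9 of 77 and rose in 0 (46 fell and 2 rose at an unadjusted p under 0.05 in limma), with a median of -0.31. The 82 cytosolic ribosomal proteins tested were not called in either direction (0 rose and 2 fell at an unadjusted p under 0.05 in limma, and 0 were called by the methods' t-test), with a median of -0.04 and a range of -0.43 to 0.19.

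**Figure D4:**
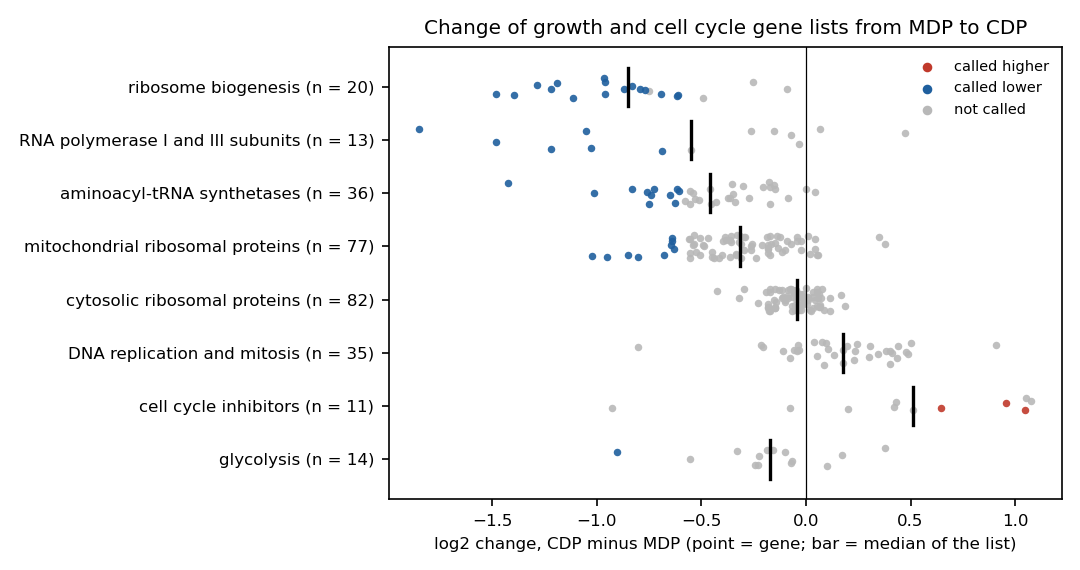
Change from MDP to CDP (horizontal axis, log2) of each tested member of 8 lists of growth, protein synthesis and cell cycle genes, with a bar at each median. The median is -0.85 for ribosome biogenesis, -0.04 for cytosolic ribosomal proteins and 0.18 for DNA replication and mitosis.

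Of the genes of DNA replication and mitosis, none was called. Of 35 tested, 0 were called (14 rose and 0 fell at an unadjusted p under 0.05 in limma, and 0 were called by the methods' t-test), with a median of 0.18 and per-slide medians from 0.14 to 0.24. Mki67, the proliferation antigen, read 2.17, 2.68, 2.32 and 2.84 in MDPs and 2.50, 2.91, 2.88 and 3.09 in CDPs. Its change of 0.34 passed the p threshold (adjusted p = 0.0214) at 1.27-fold, below the fold required. Of 11 cell cycle inhibitors tested, 3 rose and 0 fell (8 rose and 0 fell at an unadjusted p under 0.05 in limma), namely Cdkn2d (1.05), Cdkn2c (0.96) and Rb1 (0.64). Of 14 glycolysis genes, Pfkl fell (-0.90) and 0 rose (5 fell and 0 rose at an unadjusted p under 0.05 in limma). Of 16 cholesterol synthesis genes, 0 were called (5 rose and 0 fell at an unadjusted p under 0.05 in limma).

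Receptors for growth factors and chemokines changed in both directions. Of 23 growth factor and cytokine receptors tested, 4 rose (Il10ra 1.25, Csf2rb2 1.14, Il6st 0.85 and Csf2ra 0.80) and Kit alone fell, against 2 and 1 by the methods' t-test. Kit was read above as a check of the labels, so its fall is not a finding. Csf2ra encodes the GM-CSF receptor alpha chain, and Csf2rb, the shared beta chain, changed by 0.48 and was not called. Of 12 chemokine receptors tested, Cxcr3 (3.02), Ccr2 (1.0) and Ccr6 (0.81) rose and Cxcr2 fell. Cxcr3 was above background on 1 of 4 MDP arrays, and its call was lost under 11 alternative settings. Under normexp, and without the slide block, 1 of the 12 rose and 1 fell. Of 15 immediate-early genes, which respond to handling as well as to signals, Klf2 and Zfp36 (1.09) rose and Fosb (-1.46) fell. The call of Fosb was lost without each slide in turn, without the slide block and by the methods' t-test, and 1 gene rose without slide 2 or slide 4.

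The 12 rises and 12 falls of largest fitted change, by a rule that asked for groups that do not overlap and signal above background on every array of the brighter group, lay mostly in genes at or near background in the other group. Their order is partly set by background readings and is not given. Among the rises, Cd209a was above background on all 8 arrays. Slfn1 of the Schlafen family, Hpgd, which degrades prostaglandins, Clec4a3, E230016K23Rik, Rgmb and Gm6522 were above background on 0 of 4 MDP arrays. They were at least 18.1-fold, 10.6-fold, 7.12-fold, 6.2-fold, 5.51-fold and 5.42-fold higher in CDPs. Galnt9, A530064D06Rik and Ms4a8a were above background on 1 of 4 MDP arrays and Adgrg5 and Spib on 2. The call of Ms4a8a was lost under 6 alternative settings. Among the falls, Ptger3, a prostaglandin E2 receptor, Cyp2j6, Cabcoco1, Afp and Pcbd1 were above background on 0 of 4 CDP arrays and were at least 9.21-fold, 8.20-fold, 7.58-fold, 6.54-fold and 6.17-fold lower. Il22ra2, a soluble IL-22 antagonist, was above background on 1 of 4 CDP arrays, and Rgcc, a cell cycle regulator, Prom1, Angpt1 and Tmem98 on 2. Rgcc read 0.65, 1.01, 0.65 and 1.03 in MDPs and -7.54, -1.91, -4.23 and -7.51 in CDPs, so that the groups were far apart but CDPs varied widely. The probes of Mrgpra2a and Mrgpra2b overlap on chromosome 7 (mm9), starting at 54681698 and 54681703, and count as 1 measurement. They were above background on 0 of 4 CDP arrays, at least 8.65-fold and 7.85-fold lower.

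The same step was measured in tumor-bearing mice on other arrays of the same 4 slides. Those arrays were not spread evenly: slide 1 held 2 tumor-bearing MDP arrays and slide 4 held 2 tumor-bearing CDP arrays, so only slides 2 and 3 held both progenitors of tumor-bearing mice. Of the 1449 probes higher in tumor-free CDPs, 1392 (96.1%) also had a positive change in tumor-bearing mice, and of the 1492 lower probes 1442 (96.6%) had a negative one. Over all tested probes 47.8% were positive there, and of probes not called 69.5% had the same sign in both. The median change of the higher probes was 1.03 without a tumor and 0.80 with one, and of the lower probes -0.94 and -0.68. The probes were chosen on the tumor-free values. Tested directly, the step differed between the conditions for 1 of 26712 probes (0.00374%), with 1429 at an unadjusted p under 0.05 in limma. That probe reads Cd209e, another DC-SIGN family lectin, with a fitted change of 3.84 without a tumor and 0.19 with one (adjusted p of the difference 0.0171). It was above background on 0 of 4 tumor-free MDP arrays and at least 3.12-fold higher in tumor-free CDPs. The fitted changes of Clec4e were -3.41 and 0.23 (adjusted p of the difference 0.287), and those of Rgcc -6.13 and -1.79 (adjusted p of the difference 0.787). Neither passed the test of the difference. Clec4e was above background on 0 of 4 tumor-free CDP arrays and Rgcc on 2 of 4.

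**Figure D5:**
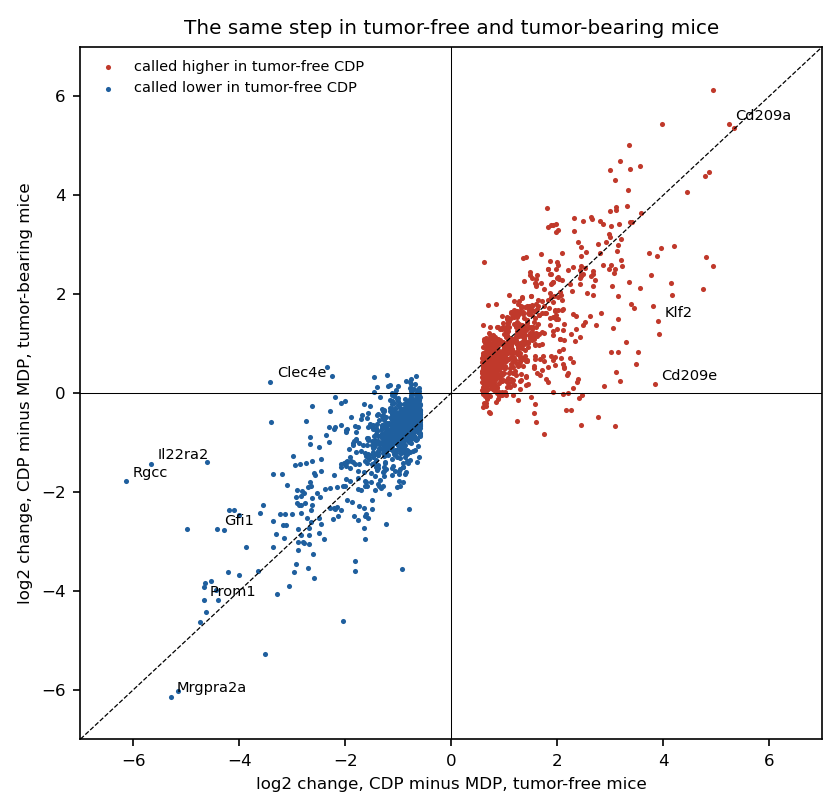
Change from MDP to CDP in tumor-free mice (horizontal axis, log2) against the same change in tumor-bearing mice (vertical axis, log2) for the 949 genes called higher and 1022 called lower in tumor-free CDPs; the dashed line marks equal changes. Cd209a, Mrgpra2a and Prom1 lie near the line, and Cd209e and Clec4e lie near 0 in tumor-bearing mice.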

How the data were processed

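A total of 16 1-colour Agilent mouse arrays (Cy5) were deposited, 8 of them from tumor-free mice. Per the file headers, the deposited scanner tables were made with Feature Extraction 11.5.1.1 and hold the processed signal intensity of each spot, background-subtracted, with probe positions on mm9. A further table by the authors holds log2 values, which correlated with the quantile-normalized log2 signal of its own array at 0.9998 or above and was used as an alternative. The submitters' processing notes name limma. All 39429 noncontrol probes were read, spots flagged as outliers were left out, spots of a probe were averaged, and log2 intensities were centred on each array's 75th percentile. No probe was saturated on any array. Well above background were 63.6% to 71.5% of probes on the 8 arrays; the number of arrays limits the precision. Symbols came from RefSeq through accession, symbol or synonym, otherwise from the file (32026 probes, 23701 symbols). Nothing in the labels beyond 4 independent experiments says how animals differed. The limma p-values measure the spread between pools within a group after the slide block, over all 16 arrays, tumor-bearing ones included.

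A probe was tested when well above background on at least 3 of 4 MDP or 3 of 4 CDP arrays. limma 3.58.1 (R 4.3.3) fitted the 4 group means of all 16 arrays with slide as a fixed block. Where the fold of a gene is given as a bound, readings of the dim group were raised to a floor. The floor was the lowest signal well above background on that array, and readings above it were kept. Genes were taken by their brightest probe. Named genes are the 12 largest fitted rises and falls that did not overlap, had 1 sign on 4 of 4 slides and were detected on 4 of 4 arrays of the brighter group, plus members of the lists. The members and lists were chosen with earlier results of these data known, and the families by name pattern and the genes given array by array after their values were seen. Promoters were the 250 bases before the start in RefSeq (GRCm38.p6). The call script was tested on simulated data. Alternatives were background correction, normalization, filter, source table, block, test, threshold, probe choice and left-out arrays. Leaving out the tumor-free arrays of a slide, while its tumor-bearing arrays stayed in the fit, was chosen after seeing the data.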

Additional observations from a re-analysis of the deposited data

Results flagged for a closer look

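In 9 of 162 groups of 4 arrays checked over 81 genes, 1 array lay far from the other 3 by Dixon's criterion, and chance flags about 1 in 20. Among genes higher in CDPs, Cd86 stood at -4.92 on the MDP array of slide 4 against -7.40 to -7.30 on the others, and Tlr11 at -3.94 on the MDP array of slide 3 against -7.56 to -7.31. Ccr2 stood at 0.67 on the MDP array of slide 1 against 0.27 to 0.30. On the CDP array of slide 1, Itgb7 was low at 4.33 against 4.66 to 4.71 and Klrd1 was high at -0.55 against -2.26 to -2.17. Among genes lower in CDPs, Car1 stood at -6.88 on the CDP array of slide 1 against -3.30 to -2.67, and Gata2 at -7.32 on that of slide 3 against -4.59 to -4.08. Il22ra2 stood at -5.23 on the CDP array of slide 3 against -7.73 to -7.34, all near background, and Polr1b at -1.40 on that of slide 2 against -2.04 to -1.94. The array that stood apart overlapped the other group for Tlr11 and for none of the other 8 genes. The step of Cd209e differed between tumor-bearing and tumor-free mice by -3.65 ± 0.36 SE on the log2 scale in limma's test of the difference (adjusted p = 0.0171), with 0 of 4 tumor-free MDP arrays above background.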

How the results depend on the processing

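The count of 2941 called probes moved by less than 1.5 times, to 2458 to 3132, under normexp, quantile, median scaling, no filter on dim probes (2642), probes above background on all 8 arrays (2527), the deposited value table (2910), a random slide block and the 8 tumor-free arrays alone (2817). Without each array in turn it ran from 2246 to 2675, with 1072 to 1296 higher. Without the slide block 1705 probes were called, 817 higher and 888 lower. The methods' t-test after Benjamini-Hochberg called 1305 (649 and 656), and a paired test of the 4 within-slide differences, which the methods do not name, 679 (330 and 349). The methods name an unpaired t-test for the study in general and no test for the arrays. At a false discovery rate of 0.01 and fold 2 there were 923 (475 and 448). Without a fold threshold 2245 were lower. Normexp called 936 higher, and leaving out slide 2, added after seeing the data, 962. Deviations of same-numbered MDP and CDP arrays correlated at -0.64 to 0.13 and those of same-slide arrays at 0.12 to 0.80. No same-numbered arrays shared a slide, so these values cannot show whether the replicate numbers pair the arrays. A replicate block in place of the slide block called 1460 probes (719 and 741), and one added to it 2912. Probes whose step differed between conditions numbered 0 under normexp and quantile, 3 without a block, 5 with a random block, 1 and 2 with the replicate block in place or added, and 0 to 3 without 1 array. The median of T, NK and innate lymphoid genes turned to -0.16 under normexp, and that of early lymphoid and B-lineage genes to -0.064 under normexp and -0.086 over probes above background on all 8 arrays. The cause of these shifts was not tested. No gene given array by array changed sign. Over the 81 genes checked by Dixon's criterion and all alternatives, 134 values lost a call, 11 gained one and 1761 did neither. These 81 include the largest changes, so the counts do not describe all tested genes. With 4 arrays a group the number of arrays limits precision, and genes near background have only a bound in their dim group.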

Other observations

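Genes of prostaglandin handling, picked by name after their values were seen, changed in both directions. Of 16 tested, 2 rose and 3 fell, and 1 fell without slide 3. Hpgd, the enzyme that inactivates prostaglandins, was above background on 0 of 4 MDP arrays and at least 10.6-fold higher in CDPs, and the prostaglandin E2 receptor Ptger4 rose by 2.02 (limma adjusted p = 0.000614). Another receptor of the same ligand, Ptger3, was at least 9.21-fold lower. The cyclooxygenase Ptgs1 fell by 1.29 and the prostaglandin D2 receptor Ptgdr2 by 0.64. Of 18 glutathione S-transferases, which conjugate reactive compounds, 8 fell and 0 rose (9 fell and 1 rose at an unadjusted p under 0.05 in limma, and the methods' t-test called 4 lower and 0 higher). Gstm5 (-2.15), Gstt3 (-1.45), Gstt2 (-1.20) and Gstm1 (-0.86) were among them. The metal-binding proteins Mt1 and Mt2 fell by 2.21 and 3.11. Mt1 read 2.42, 2.14, 2.12 and 2.18 on the MDP arrays of slides 1 to 4 and 0.47, -0.02, 0.02 and -0.43 on the CDP arrays, so the groups did not overlap.

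Of 11 carbonic anhydrases, which hydrate carbon dioxide, 4 fell, namely Car12 (-3.87), Car1 (-3.31), Car3 (-2.89) and Car2 (-2.45). The median of the family was 0.0003, and 6 of 11 changes were positive. Car1 and Car2 are also counted among the erythroid genes. Of 8 p200 interferon-inducible genes, several of which sense DNA, 4 rose, namely Ifi207 (2.39), Ifi205 (1.46), Ifi204 (1.34) and Ifi203 (0.80). Of 7 Schlafen genes 3 rose, namely Slfn2 (1.66), Slfn1 (at least 18.1-fold) and Slfn5 (at least 1.3-fold). Of 9 CD300 receptors, which bind lipids, 3 rose, namely Cd300c (2.26), Cd300c2 (1.76) and Cd300e (1.08), against 1 of 9 under normexp. Of 6 phagocyte oxidase genes Cybb rose, by 1.02.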
